A study of Paxillus involutus ATCC 200175 with 12 samples.

Results

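Mycelium of Paxillus involutus that had received glucose without ammonium (OM+G) was compared with mycelium that had received ammonium without glucose (OM+N). Samples were chosen by their titles, which gave 6 of the 12 arrays of the study, 3 per group. Paxillus involutus (ATCC 200175) is an ectomycorrhizal fungus, and the study asked how carbon and nitrogen supply govern its use of the nitrogen in plant litter. In every group the fungus was grown without a host plant on glass beads for 9 days in a minimal medium, starved of nitrogen for 24 h and then given a hot-water extract of maize compost for 7 days. The extract had been filtered at 0.2 um and freed of molecules under 10 kDa. It was the common background of both groups, called OM. Neither group was therefore free of other carbon or nitrogen, and no dose of either addition is stated in the labels. The other 6 arrays, from mycelium with the extract alone (OM) and with both additions (OM+N+G), served as a second comparison that shares no array with the first.

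Ectomycorrhizal fungi live on sugars from tree roots and pass nitrogen from soil to the tree. In moulds and yeasts a preferred sugar represses genes for the use of poorer carbon sources, and ammonium represses genes for the use of poorer nitrogen sources. Paxillus involutus is known to attack litter by oxidation, with chemistry that resembles that of brown-rot fungi. A direct comparison of a sugar-fed with an ammonium-fed culture sets both kinds of supply against each other, so that the difference of a transcript equals its average response to glucose minus its average response to ammonium over the 4 groups.

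Transcript levels are log2 values of 12214 features, nearly all summarised from 10 probes. The features carry running numbers only. Neither the files nor the reference gene table of this fungus, which holds 0 of these numbers, name a gene for them, so no role, marker or sequence can be given for any feature, and the identity of the tissue could not be checked by markers. Array medians lay between 11.74 and 11.78. The OM+G arrays occupied subarrays 7 to 9 and the OM+N arrays subarrays 4 to 6 of 1 slide, so supply and position on the slide cannot be told apart. The 3 cultures named in the design text were taken to be 3 for each group. Among features with a mean level of at least 6, correlations between arrays were 0.990 to 0.995 within OM+G, 0.961 to 0.987 within OM+N and 0.727 to 0.855 between the groups. OM+N replicate 1 stood apart from its group: its root mean square distance to the OM+G mean was 0.61 on the log2 scale, against 0.47 and 0.50 for the other OM+N arrays. For the values as deposited, the counts of called features and of large differences are given with and without it. Other results include it unless stated.

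Most of the array features differed between sugar-fed and ammonium-fed mycelium. At an adjusted p under 0.05 by limma, 8910 of 12214 features were called (72.9%), of which 3847 were higher in OM+G (31.5% of all) and 5063 lower (41.5%). The differences were mostly small. The median called rise was 1.44-fold (log2 0.52) and the median called fall 1.38-fold (log2 -0.47), against a median of -0.08 over all features. For 9429 features (77.2%) every OM+G array lay on the same side of every OM+N array, and 8787 of these were called. The smallest called difference was 0.12 on the log2 scale, and the median standard error was 0.08.

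The tails were unequal. Called features at least 1 higher in OM+G on the log2 scale numbered 467 (3.82% of all), and those at least 1 lower numbered 47 (0.385%). At a difference of at least 1.5 the counts were 73 and 0, and 8 features were at least 2 higher. Over all features the direction of this imbalance held under each scaling, but its size did not. Cyclic loess between arrays gave 453 higher and 129 lower, and quantile normalization 444 and 118. Among the 2875 brightest features the direction did not hold after cyclic loess. There 226 were at least 1 higher and 24 at least 1 lower as deposited, against 121 and 122 after cyclic loess. These counts were 155 and 102 after quantile normalization and 187 and 49 after scaling to a common 75th percentile. Over all features without OM+N replicate 1 the counts were 299 and 26, while 8409 features were still called. In both fits 8301 features were called in the same direction, and none was called in opposite directions.

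The 467 features of the upper tail show where this array enters. Their median level was 12.87, 12.86 and 12.91 in the OM+G arrays and 11.36, 11.76 and 11.72 in the OM+N arrays, with replicate 1 the lowest. The median standard deviation of these features was 0.24 in OM+N and 0.06 in OM+G, while over all features it was 0.08 and 0.06. These levels follow from the choice of the features. In the other groups, whose levels did not set the difference and entered only its estimate of spread, their median level was 12.81, 12.77 and 12.73 in OM+N+G and 11.90, 12.32 and 11.76 in OM. These features thus lay near the OM+G level wherever glucose was given, and OM replicate 2 lay between both levels.

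The 47 features of the lower tail were more even. Their median level was 11.93, 11.83 and 11.81 in OM+G and 13.00, 12.89 and 12.92 in OM+N. It was 11.78, 11.84 and 11.80 in OM+N+G and 12.81, 12.58 and 12.78 in OM. Again the arrays with glucose lay together, here at the low level, and those without it at the high level.

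**Figure D1:**
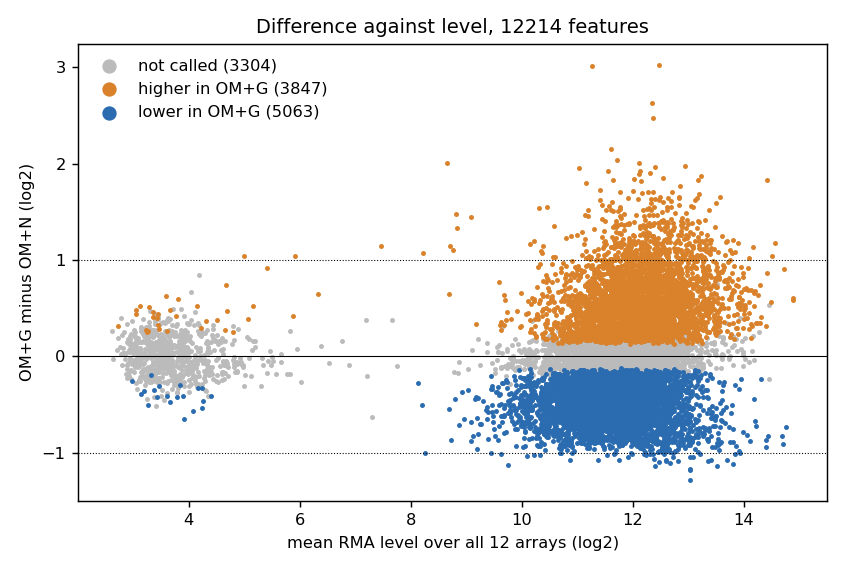
Difference between OM+G and OM+N (log2, vertical axis) against the mean level over all 12 arrays (log2, horizontal axis), with 1 point per feature. Orange points were called higher in OM+G (3847), blue points lower (5063) and grey points were not called (3304), and dotted lines mark differences of 1. The upper tail reaches 3.03, whereas the lower tail ends at -1.29.

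No feature switched between the level of the random-sequence control and a clear signal. The control lay between 3.66 and 3.80 on all arrays, and 715 features had a mean level under 6 (median 3.63). Of these, 53 were called (7.41%), 33 upward and 20 downward, against 77.0% of the 11499 brighter features. There were 0 features with a mean under 6 in one of both groups and over 8 in the other. Features that were not called often had a narrow interval: for 2318 of 3304, the 95% interval of the difference lay within a 1.25-fold change in either direction. The 3304 include most of the 715 features with a mean under 6, and the 2318 were not split by level.

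The features with the largest rises were paxillus_10 and paxillus_316. paxillus_10 stood at 13.77, 13.86 and 13.73 in the OM+G arrays and at 10.74, 10.51 and 11.02 in the OM+N arrays. It was 8.15-fold higher in OM+G (log2 3.03, SE 0.41, limma adjusted p = 2.68e-05), and every OM+G array lay above every OM+N array. The OM+N+G arrays held it at 13.94, 13.81 and 13.93, near the level with glucose alone. In OM it stood at 10.76 and 10.75 in replicates 1 and 3 but at 12.90 in replicate 2. The SE of 0.41 draws on the spread in all 4 groups. In a fit of only the 6 arrays of OM+G and OM+N the SE was 0.12. The average response of paxillus_10 to glucose was 2.73 (SE 0.29, limma adjusted p = 1.89e-06) and its average response to ammonium -0.30 (SE 0.29, limma adjusted p = 0.601), so nearly the whole difference lay in the glucose term. Both terms include OM replicate 2 and were not refitted without it.

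paxillus_316 showed a like pattern at a lower level. It stood at 12.56, 12.66 and 12.75 in OM+G and at 9.64, 9.42 and 9.87 in OM+N, with no overlap. The log2 difference was 3.01 (limma adjusted p = 5.66e-06), which with its SE of 0.33 cannot be ordered against that of paxillus_10. OM+N+G arrays lay at 12.64, 12.45 and 12.31, and OM arrays at 9.85, 11.40 and 9.62. The glucose term was 2.60 (SE 0.23, limma adjusted p = 4.52e-07). The ammonium term was -0.42 with a 95% interval from -0.93 to 0.09 (limma adjusted p = 0.348), so a moderate fall with ammonium was not resolved. The SE of 0.33 for the difference draws on the spread in all 4 groups, and it was 0.12 without OM replicate 2. The ammonium term and its interval include that array and were not refitted without it.

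The features with the largest falls were paxillus_11336 and paxillus_12237, and they differed in where OM and OM+N+G lay. paxillus_11336 stood at 12.32, 12.38 and 12.39 in OM+G and at 13.55, 13.71 and 13.68 in OM+N. It was 2.44-fold lower in OM+G (log2 -1.29, SE 0.09, limma adjusted p = 1.51e-06), without overlap of the groups. Its level in OM+N+G, at 13.59, 13.54 and 13.61, was close to that of OM+N, and in OM, at 12.75, 12.33 and 12.59, it lay closer to that of OM+G. The ammonium term was 1.15 (SE 0.06, limma adjusted p = 1.86e-06) and the glucose term -0.13 (SE 0.06, limma adjusted p = 0.0726).

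paxillus_12237 was also 2.27-fold lower in OM+G (log2 -1.18, SE 0.11, limma adjusted p = 2.02e-06), with levels of 12.55, 12.51 and 12.50 in OM+G and 13.77, 13.59 and 13.75 in OM+N. The groups did not overlap. Here OM+N+G, at 12.43, 12.57 and 12.28, sided with OM+G, and OM, at 13.62, 13.25 and 13.69, with OM+N. The glucose term was -1.14 (SE 0.08, limma adjusted p = 5.58e-08), and the ammonium term was 0.04 with a 95% interval from -0.12 to 0.21. Both features had nearly the same difference between OM+G and OM+N, and only the other groups told them apart. The arrays with glucose were those on subarrays 7 to 12, so for paxillus_12237 glucose and position cannot be told apart.

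**Figure D2:**
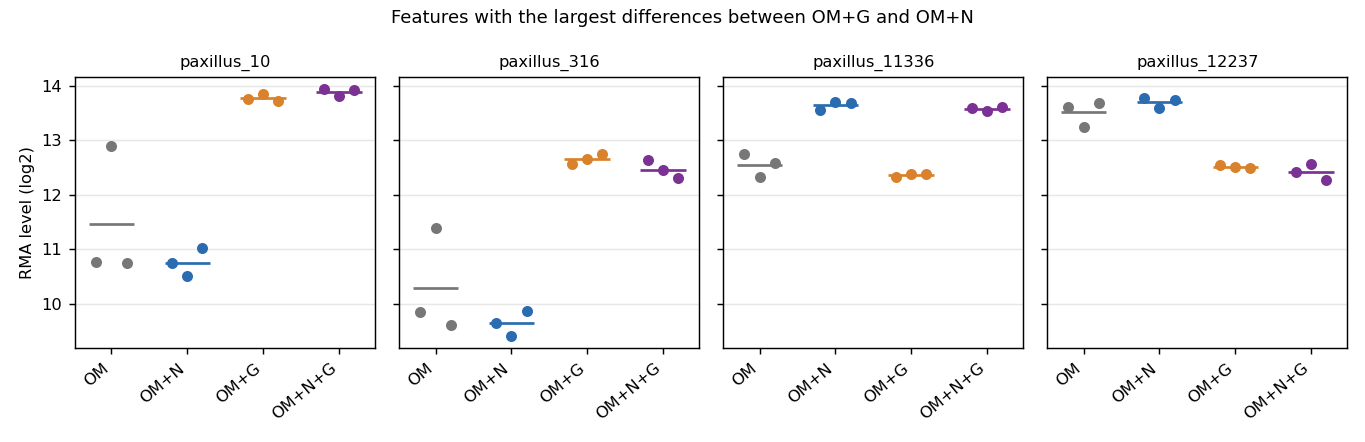
Level (log2, vertical axis) of the pair of features that rose most and the pair that fell most from OM+N to OM+G in each of the 12 arrays, by group. Points are arrays and bars are group means (n = 3). paxillus_10, paxillus_316 and paxillus_12237 separate arrays with glucose from those without it, with OM replicate 2 of the first pair in between, and paxillus_11336 separates arrays with ammonium from those without it.

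The comparison of OM+N+G with OM was used to ask, over all features, which supply the differences followed. It shares no array with OM+G against OM+N, but OM lay on subarrays 1 to 3 and OM+N+G on subarrays 10 to 12. Arrays with glucose thus occupied subarrays 7 to 12 in both comparisons, and their likeness cannot tell glucose from position. A transcript that responds to glucose alone differs the same way in both comparisons, and one that responds to ammonium alone differs in opposite ways. In OM+N+G against OM, 8183 features were called (67.0%). Called the same way in both were 7112 features, which is 79.8% of those called between OM+G and OM+N and 86.9% of those called between OM+N+G and OM. Of these, 3059 were higher with glucose and 4053 lower. Called in opposite ways were 125 features, or 1.40% and 1.53% of the lists. The difference between both comparisons, tested as a contrast of its own, passed for 585 features (4.79%). This contrast is a fixed multiple of the average response to ammonium, so its test is also the test of the ammonium term. The test passed for 120 of the 125, which their selection by opposite calls nearly fixes.

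Across the 12214 features the log2 differences of both comparisons correlated with a Pearson's r of 0.86 and a Spearman's rho of 0.89. Features are not independent replicates, and both comparisons come from 1 slide and 1 normalization. The slope of OM+N+G minus OM on OM+G minus OM+N, through the origin, was 0.75. Without OM+N replicate 1 and OM replicate 2 it was 0.92, with r at 0.89. The root mean square of the average glucose response over features was 0.47 on the log2 scale, that of the average ammonium response 0.13, and that of their common standard error 0.07. By this measure the glucose term made up the larger part of the difference between OM+G and OM+N, and the ammonium term enters that difference with its sign turned.

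**Figure D3:**
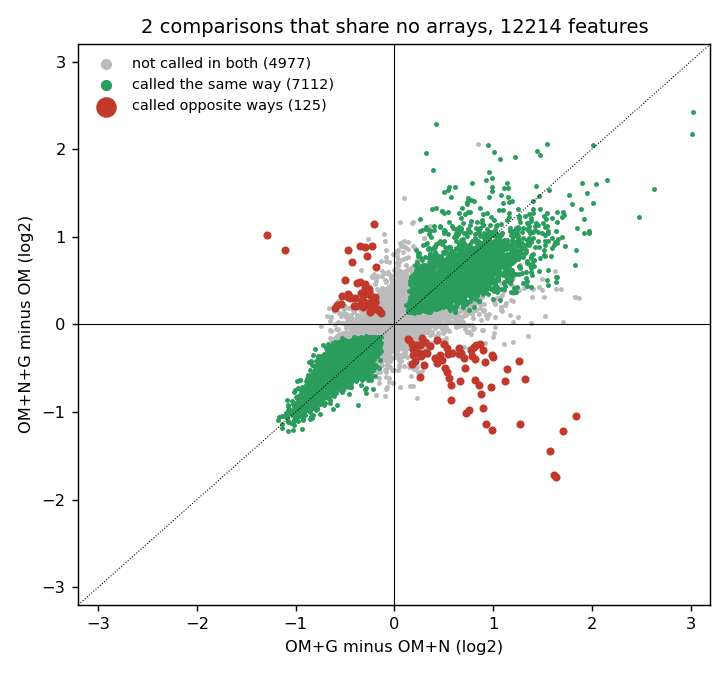
Difference of OM+N+G and OM (log2, vertical axis) against the difference of OM+G and OM+N (log2, horizontal axis), with 1 point per feature. Green points were called the same way in both comparisons (7112), red points in opposite ways (125, drawn larger), and the dotted line marks equal differences. Green points fill the quadrants of equal sign, and the red points with the lowest vertical values lie near 1.6 on the horizontal axis.

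Over all 12214 features the difference of both comparisons, and with it the ammonium term, passed the test for 585 (4.79%). Among the 7112 features called the same way it passed for 170. Those higher in both had a median difference of 0.56 between OM+G and OM+N and of 0.48 between OM+N+G and OM. The difference of both comparisons passed the test for 147 of these 3059, a share near that over all features. In 65 of the 147 the difference was larger between OM+G and OM+N, and in 82 between OM+N+G and OM. For those lower in both the medians were -0.52 and -0.45, and 23 of 4053 passed, a smaller share than over all features. A further 1673 features were called between OM+G and OM+N but not between OM+N+G and OM (18.8% of the first list). For 160 of them the difference of both comparisons passed the test, a larger share than over all features. For the others the missing call does not show a different response. The choice of features by their calls bears on each of these shares.

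Each array was also placed along the difference between the groups of the other comparison, over all features. On a scale from 0 at the OM+N mean to 1 at the OM+G mean, the OM+N+G arrays scored 0.98, 0.97 and 0.95, and the OM arrays 0.16, 0.44 and 0.07. Mycelium with both additions thus lay beside that with glucose alone, and OM replicate 2 lay nearly midway. On the matching scale from 0 at the OM mean to 1 at the OM+N+G mean, the OM+G arrays scored 0.83, 0.86 and 0.89 and the OM+N arrays -0.27, -0.04 and -0.09. With OM+N replicate 1 and OM replicate 2 left out of both scales, the mean score was 0.05 for OM, 0.04 for OM+N, 0.89 for OM+G and 0.97 for OM+N+G.

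The 125 features called in opposite ways had an average response to ammonium that was larger in size than that to glucose. The opposite signs of both differences fix this in advance. Opposite calls do not show that a feature lacks a response to glucose. In 68 of them the level was higher in OM+G than in OM+N and lower in OM+N+G than in OM. Their median level was 12.55, 12.57 and 12.56 in the OM+G arrays and 11.72, 11.83 and 11.81 in the OM+N arrays. In the OM+N+G arrays it was 11.69, 11.64 and 11.61, and in the OM arrays 12.06, 12.27 and 12.07. Both groups with ammonium thus lay lowest. These levels chose the features and are given as a description. The other 57 features went the other way, with a median level of 11.37, 11.39 and 11.42 in OM+G and of 11.76, 11.78 and 11.77 with ammonium alone. With both additions it was 11.94, 11.88 and 11.95, and in OM 11.62, 11.52 and 11.67. The sizes were unequal: 11 of the 68 features and 2 of the 57 differed by at least 1 on the log2 scale between OM+G and OM+N. Over all called features the sizes were unequal too, with 467 of 3847 rises and 47 of 5063 falls of at least 1. The counts of 68 and 57 were 67 and 55 after cyclic loess, and 63 and 48 without OM+N replicate 1 and OM replicate 2.

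paxillus_9370 and paxillus_8662 had the largest positive difference between OM+G and OM+N in this class. paxillus_9370 stood at 12.98, 13.03 and 12.63 in OM+G and at 10.99, 11.06 and 11.10 in OM+N. It was 3.57-fold higher in OM+G (log2 1.83, SE 0.16, limma adjusted p = 1.92e-06). In OM+N+G it lay at 10.92, 10.72 and 10.75 and in OM at 11.77, 12.29 and 11.47, so that the difference between those groups was -1.05 (SE 0.16, limma adjusted p = 0.000107). Arrays with ammonium lay below all arrays without it, and those with glucose alone above all others. The glucose term of 0.39 (SE 0.12) was smaller than the ammonium term of -1.44 (SE 0.12). Each term averages the changes at both levels of the other nutrient, and no test of their difference is given here. OM+G was 1.04 above OM (limma adjusted p = 0.000128), while OM+N+G minus OM+N was -0.25 (limma adjusted p = 0.177). For ammonium, OM+N+G minus OM+G was -2.09 (limma adjusted p = 1.00e-05). OM+N minus OM was -0.79 and was not called (limma adjusted p = 0.0699).

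paxillus_8662 stood at 13.38, 13.46 and 13.26 in OM+G and at 11.38, 11.77 and 11.84 in OM+N. With both additions it stood at 11.53, 11.32 and 11.46, and in OM at 12.61, 12.93 and 12.41. OM+G lay above every other array, OM came next, and the groups with ammonium overlapped. The difference was 1.70 (SE 0.13, limma adjusted p = 1.51e-06) between OM+G and OM+N and -1.21 (SE 0.13, limma adjusted p = 8.34e-06) between OM+N+G and OM.

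The largest negative differences in this class were those of paxillus_11336, described above, and paxillus_1285. paxillus_1285 stood at 11.93, 11.97 and 12.22 in OM+G and at 13.00, 13.37 and 13.06 in OM+N. It was 2.15-fold lower in OM+G (log2 -1.11, SE 0.10, limma adjusted p = 2.18e-06). In OM+N+G it stood at 13.14, 13.19 and 13.17 and in OM at 12.37, 12.18 and 12.41, a difference of 0.85 (SE 0.10, limma adjusted p = 1.48e-05). Both groups with ammonium lay at the high level, and the highest OM+G array lay just above the lowest OM array.

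**Figure D4:**
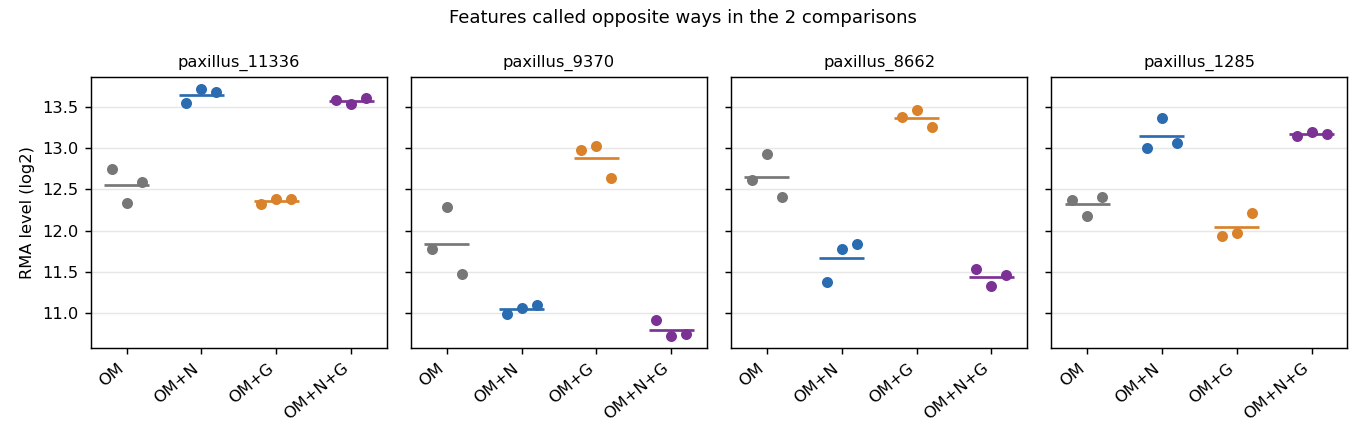
Level (log2, vertical axis) in each of the 12 arrays of the features with the largest differences among those called in opposite ways, by group. Points are arrays and bars are group means (n = 3). paxillus_9370 and paxillus_8662 are highest in OM+G and low in both groups with ammonium, and paxillus_11336 and paxillus_1285 are high in both groups with ammonium.

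The direction of the difference changed with the brightness of the features. The 11499 features with a mean level of at least 6 were divided by that level into 4 equal groups. Among the brightest 25%, 51.0% were called higher in OM+G and 30.2% lower. In the next groups the shares were 36.9% and 39.9%, then 27.0% and 47.7%, and in the dimmest 25% they were 17.7% and 57.6%. The median difference fell along with them, from 0.19 in the brightest 25% through -0.03 and -0.14 to -0.26 in the dimmest. The spread of levels moved with this pattern: OM+G arrays had a wider interquartile range (1.26 ± 0.01, SD, n = 3) than OM+N arrays (1.07 ± 0.02, SD, n = 3). After cyclic loess, which removes trends with brightness by construction, 40.3% of the brightest 25% were higher and 37.1% lower, against 33.4% and 35.7% of the dimmest. In the dimmest group the shares were 28.0% and 42.3% after quantile normalization and 15.0% and 62.7% after scaling to a common 75th percentile, so the excess of falls there depended on the scaling. The share of higher calls among all calls was 43.2% as deposited, 49.3% after cyclic loess and 38.0% after scaling to a common 75th percentile.

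**Figure D5:**
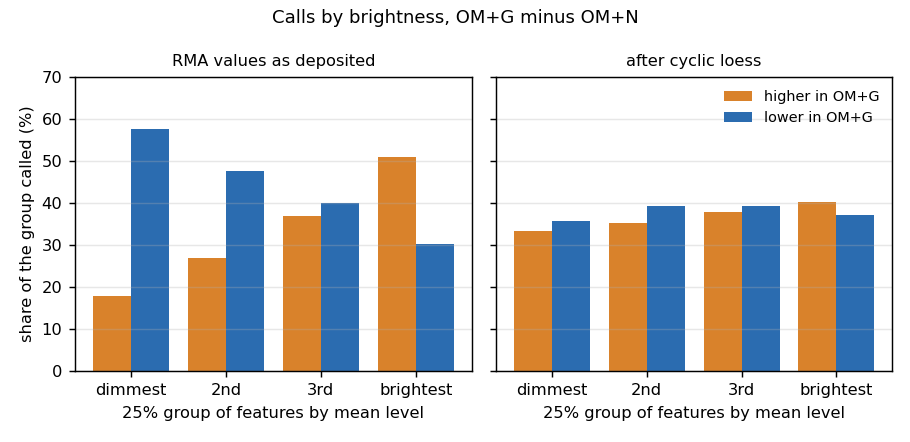
Share of features called higher (orange) or lower (blue) in OM+G than in OM+N (%, vertical axis) in each 25% of the 11499 brighter features by mean level (horizontal axis), as deposited on the left and after cyclic loess on the right. As deposited, higher calls rise from 17.7% to 51.0% and lower calls fall from 57.6% to 30.2% towards the brightest 25%, and after cyclic loess all shares lie between 33.4% and 40.3%.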

How the data were processed

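Cy3-labelled double-stranded cDNA was hybridised to 12 subarrays of a NimbleGen slide. Per the submitters' processing notes, the authors used RMA to make the deposited log2 values, 1 per feature and array; the log2 scale was read from the range of the values. RMA usually equalises the distributions of the arrays, which hides any change of total mRNA and makes each difference relative to the other features. The deposited values per feature were not equal in spread, with a mean interquartile range of 1.26 in OM+G and 1.07 in OM+N. A deposited score column, named as an error, lies between 0 and 1, has no stated meaning and was not used. The deposited count of probes per feature is 10 for 12203 features. The random-sequence control was left out of all tests.

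Group means were estimated from all 12 arrays with limma 3.58.1 (R 4.3.3; lmFit, contrasts.fit, eBayes), with 8 residual and 4.72 prior degrees of freedom. All adjusted p-values are two-sided, from limma, with Benjamini-Hochberg adjustment over all 12214 features within a contrast, and a feature was called at an adjusted p under 0.05. An average response is the mean of the changes with a nutrient at both levels of the other one. Errors are limma's moderated SE. Precision is limited by the number of arrays, and p-values reflect cultures and subarrays together. The pipeline was tested on simulated data of independent normal values, with differences set in a small part of the features and no deviant array. That setting is simpler than these data, so the test does not cover their conditions.

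Named features are the 2 that rose most and the 2 that fell most among called features without overlap of arrays, in OM+G minus OM+N and among the features called in opposite ways. The comparisons, lists and rules were chosen with earlier results of these data known. Alternatives were another scaling (cyclic loess, 75th percentile, quantile), the series table, leaving out the dimmest 25% of features, trend and robust moderation, array weights, a block, fewer arrays, a minimum change and an ordinary linear model.

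Same-numbered arrays of OM+G and OM+N did not deviate together (r of 0.06, -0.14 and -0.10), so the numbers were not taken as pairs.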

Additional observations from a re-analysis of the deposited data

How the results depend on the processing

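The count of 8910 called features lay between 7154 and 9359 under every alternative run except a test against a minimum change of 0.5 on the log2 scale (limma treat), which asks for larger differences and called 1605, with 875 higher and 730 lower. The count of 7154 came with the dimmest 25% of features left out, so fewer features were tested. The ordinary linear model called 8833. Leaving out 1 array gave 8409 to 9036. With the replicate number as a block 8843 features were called, 3814 higher and 5029 lower. The block left the calls of the 7 named features in both comparisons and on their glucose and ammonium terms as they were, and 575 features in place of 585 passed the test of the difference between both comparisons. The 514 features that differed by at least 1 depended most on OM+N replicate 1: leaving out 1 array gave 325 to 648 in all, 299 to 580 higher and 26 to 68 lower, and the lowest of each came without that array. The highest total came without OM+N replicate 2. When OM+N replicate 1 and OM replicate 2 were both left out, the counts were 325, 299 and 26. The 47 falls of that size became 129 after cyclic loess, 94 after scaling to the 75th percentile and 118 after quantile normalization. The shares by brightness moved with scaling. In the dimmest 25%, higher and lower calls made up 33.4% and 35.7% after cyclic loess, 15.0% and 62.7% after the 75th percentile and 28.0% and 42.3% after quantile normalization. In the brightest 25% they were 40.3% and 37.1%, 46.8% and 33.2%, and 42.2% and 36.2%. With brightness taken from the OM and OM+N+G arrays alone, chosen after seeing the data, 52.9% of the brightest 25% were higher. Features called the same way in both comparisons numbered 5769 to 7900, and those called in opposite ways 100 to 173. The count of 5769 also came with the dimmest 25% of features left out. The 7 named features kept their direction and their call in OM+G against OM+N under the 22 alternatives, and in OM+N+G against OM under the 21, for which they were refitted; limma treat and the ordinary linear model were run for the counts only. The difference of OM+N+G and OM for paxillus_10 was 3.14 and that for paxillus_316 2.73 without OM replicate 2, against 2.42 and 2.18 with it.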
